A study of Arabidopsis thaliana with 12 samples.

Results

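The 48 genes described here encode proteins of the large, 60S subunit of the cytosolic ribosome of Arabidopsis thaliana. They were listed by locus identifier from the RPL and RPP0 families, with no threshold on a measured value, and are 48 of the 37184 genes counted in each library. They fall into 19 protein families, of which 10 have 2 listed genes, 8 have 3 and 1 has 4. Gene expression was measured by RNA-seq of ribosomal RNA-depleted total RNA from seedlings aged 21 days. The plants were grown on soil in days of 16 h light and 8 h dark, after 2 days of stratification at 4 °C. The genotypes were the double mutant dxo1-2 xrn3-8, the single mutant dxo1-2, the single mutant xrn3-8 and the wild type Col-0, with 3 libraries each and 12 in all. None received a treatment. The study concerned ribosomal RNA processing in plants that lack DXO1. The double mutant libraries were added in the present series, and the submitters state that they were grown, prepared and sequenced together with those of the other genotypes, which came from earlier series.

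Ribosomal proteins of the large subunit are made in the cytosol, imported into the nucleolus and assembled there on precursor ribosomal RNA, and some join only after the particle has been exported. In Arabidopsis nearly every cytosolic ribosomal protein is encoded by a small family of paralogous nuclear genes, and loss of single paralogs is known to alter leaf shape and embryo development. DXO1 removes non-canonical caps from RNA 5′ ends and also acts in messenger RNA cap methylation, and XRN3 digests RNA in the nucleus, starting at the 5′ end.

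Gene counts per library summed to between 60138933 and 81494915, of which nuclear genes gave between 30325134 and 41041718. The part of gene counts from plastid genes was 41.3 to 45.9% in dxo1-2 xrn3-8. It was 47.6 to 48.5% in the dxo1-2 libraries, 49.0 to 53.5% in those of xrn3-8, and 50.8 to 51.6% in Col-0. DXO1 had 3.07 ± 0.0885 CPM (read counts of a gene relative to the scaled library size) in dxo1-2 xrn3-8, 1.52 ± 0.217 in dxo1-2, 9.91 ± 0.420 in xrn3-8 and 8.82 ± 0.172 in Col-0. XRN3 had 40.2 ± 3.40 CPM in dxo1-2 xrn3-8, 59.0 ± 0.688 in dxo1-2, 21.6 ± 1.49 in xrn3-8 and 51.8 ± 0.375 in Col-0 (SD, n = 3). Each targeted gene was lowest in the single mutant that carries its allele. In the double mutant, which carries both alleles, XRN3 was below Col-0 but above xrn3-8, and DXO1 was below Col-0 but above dxo1-2. The leaf genes RBCS1A, RCA and CAB1 had at least 54733 counts in every library, whereas the listed flower and seed genes and 3 of the 4 listed root genes had at most 102 counts. Fewer cells of a type and less RNA per cell cannot be told apart in such seedling samples.

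Sequences upstream of 6 members are shown first: both L3 paralogs and the leading L10 paralogs, which differ in their change, and the 2 members that rose most in dxo1-2. Several kinds of short element are known from plant ribosomal protein promoters. The telo box, AAACCCTA, was present on either strand within 250 bases upstream of the annotated start of 9 of 48 members (18.8%), against 4.49% of all protein-coding genes. Site II elements, searched as TGGGCC or TGGGCT on either strand, were present in 33 of 48 members (68.8%), against 19.2% of all protein-coding genes. Both kinds occurred in 6 members (12.5%), against 1.36% of all protein-coding genes, and 12 members had neither. TGGGCC overlaps its own reverse complement in TGGGCCCA, and such a site counts on both strands. The last 120 bases before the annotated start are printed below for these 6 members, read 5′ to 3′ on the strand of the gene from the RefSeq TAIR10.1 genome, with the searched elements in capitals.
RPL3A (AT1G43170), chr1:16266433-16266552, plus strand: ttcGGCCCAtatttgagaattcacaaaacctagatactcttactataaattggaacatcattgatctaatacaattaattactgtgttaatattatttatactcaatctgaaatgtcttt
RPL3B (AT1G61580), chr1:22723153-22723272, minus strand: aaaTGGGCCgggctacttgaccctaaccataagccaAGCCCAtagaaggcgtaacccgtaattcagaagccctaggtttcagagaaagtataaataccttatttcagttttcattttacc
SAC52 (AT1G14320), chr1:4887994-4888113, plus strand: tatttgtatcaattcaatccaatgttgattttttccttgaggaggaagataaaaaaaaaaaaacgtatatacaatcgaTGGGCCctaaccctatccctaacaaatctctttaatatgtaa
SAG24 (AT1G66580), chr1:24838970-24839089, plus strand: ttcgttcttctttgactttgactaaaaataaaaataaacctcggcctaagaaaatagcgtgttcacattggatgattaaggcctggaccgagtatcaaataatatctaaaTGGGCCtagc
AT5G60670, chr5:24381600-24381719, minus strand: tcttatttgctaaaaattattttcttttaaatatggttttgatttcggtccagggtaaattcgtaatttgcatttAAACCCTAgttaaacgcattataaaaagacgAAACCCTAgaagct
AT1G70600, chr1:26621780-26621899, minus strand: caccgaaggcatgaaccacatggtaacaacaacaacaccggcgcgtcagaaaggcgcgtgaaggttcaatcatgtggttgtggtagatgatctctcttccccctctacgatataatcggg
The windows of RPL3A and RPL3B, 2 paralogs for the same protein, each hold a site II element. AT5G60670 is the one printed gene with telo boxes, and none of the searched elements lies in the window of AT1G70600. A match describes the letters only, and occupancy by any factor was not measured.

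Of the 48 members, 46 passed the filter on low counts and were tested. The 2 that did not pass, AT3G51190 of family L8 and AT3G48960 of family L13, had at most 2 and 8 counts in any library. On the scale of reads per kilobase of exon, emb2386 (AT1G02780), one of 3 genes for L19, had the highest mean over all libraries at 284.9 CPM per kb. RPL3A followed at 274.6 and the L5 gene ATL5 at 262, whereas AT2G40010, one of 3 genes for the stalk protein P0, was lowest of the tested members at 2.33. Within families the paralogs differed in level. RPL3A supplied 94.5% of the L3 reads per kb in Col-0 and AT3G09200 supplied 90.3% of those of P0, whereas ATL5 and RPL5B shared L5 at 55.5% and 44.5%.

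The summed share of nuclear gene counts taken by the 48 members was 1.27, 1.25 and 1.354% in dxo1-2 xrn3-8, 1.58, 1.54 and 1.51% in dxo1-2, 1.07, 1.02 and 1.02% in xrn3-8 and 1.10, 1.02 and 0.99997% in Col-0. All libraries of dxo1-2 xrn3-8 and of dxo1-2 lay above all libraries of Col-0, dxo1-2 was highest, and xrn3-8 overlapped Col-0. The mean share was 1.24 times that of Col-0 in dxo1-2 xrn3-8, 1.48 times in dxo1-2 and 0.993 times in xrn3-8. With 3 libraries against 3, an exact permutation test cannot go below p = 0.10, so no test is given for these sums. The remaining results use CPM scaled by the trimmed mean of M-values (TMM), which sets the typical gene to be equal between libraries and differs from the share of nuclear counts as stated below.

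**Figure D1:**
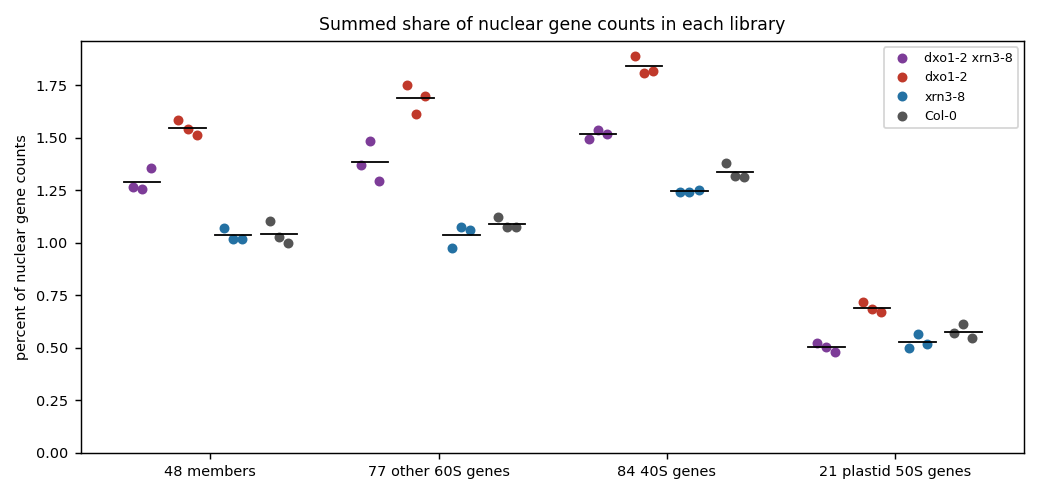
Percent of nuclear gene counts (vertical axis) taken by the 48 members, 77 other 60S protein genes, 84 genes of the small 40S subunit and 21 nuclear genes for the plastid 50S subunit; each point is a library and each line the mean of 3. The members took 1.51 to 1.58% in dxo1-2, against 0.99997 to 1.10% in Col-0.

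In dxo1-2, transcripts of most members were more abundant than in Col-0. By edgeR's quasi-likelihood test with Benjamini-Hochberg adjustment over all tested genes, 39 of 46 members rose, 1 fell and 6 did not pass an adjusted p of 0.05. Over all tested genes 21.5% rose and 20.7% fell. The median log2 fold change of the members was 0.45, against 0.01 for all tested genes and -0.04 for 1449 tested nuclear genes whose levels lay between the quartiles of the members' levels. The libraries of dxo1-2 lay wholly above those of Col-0 for 42 members and wholly below for 1, where 28.3% and 27.4% of all tested genes were so separated. Directions of all 46 members were the same under each of 4 other ways of scaling the libraries. When the counts of the paralogs were added within each family, all 19 families were higher in dxo1-2, with no overlap between libraries, by log2 0.24 for L5 to 0.87 for L27a.

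**Figure D2:**
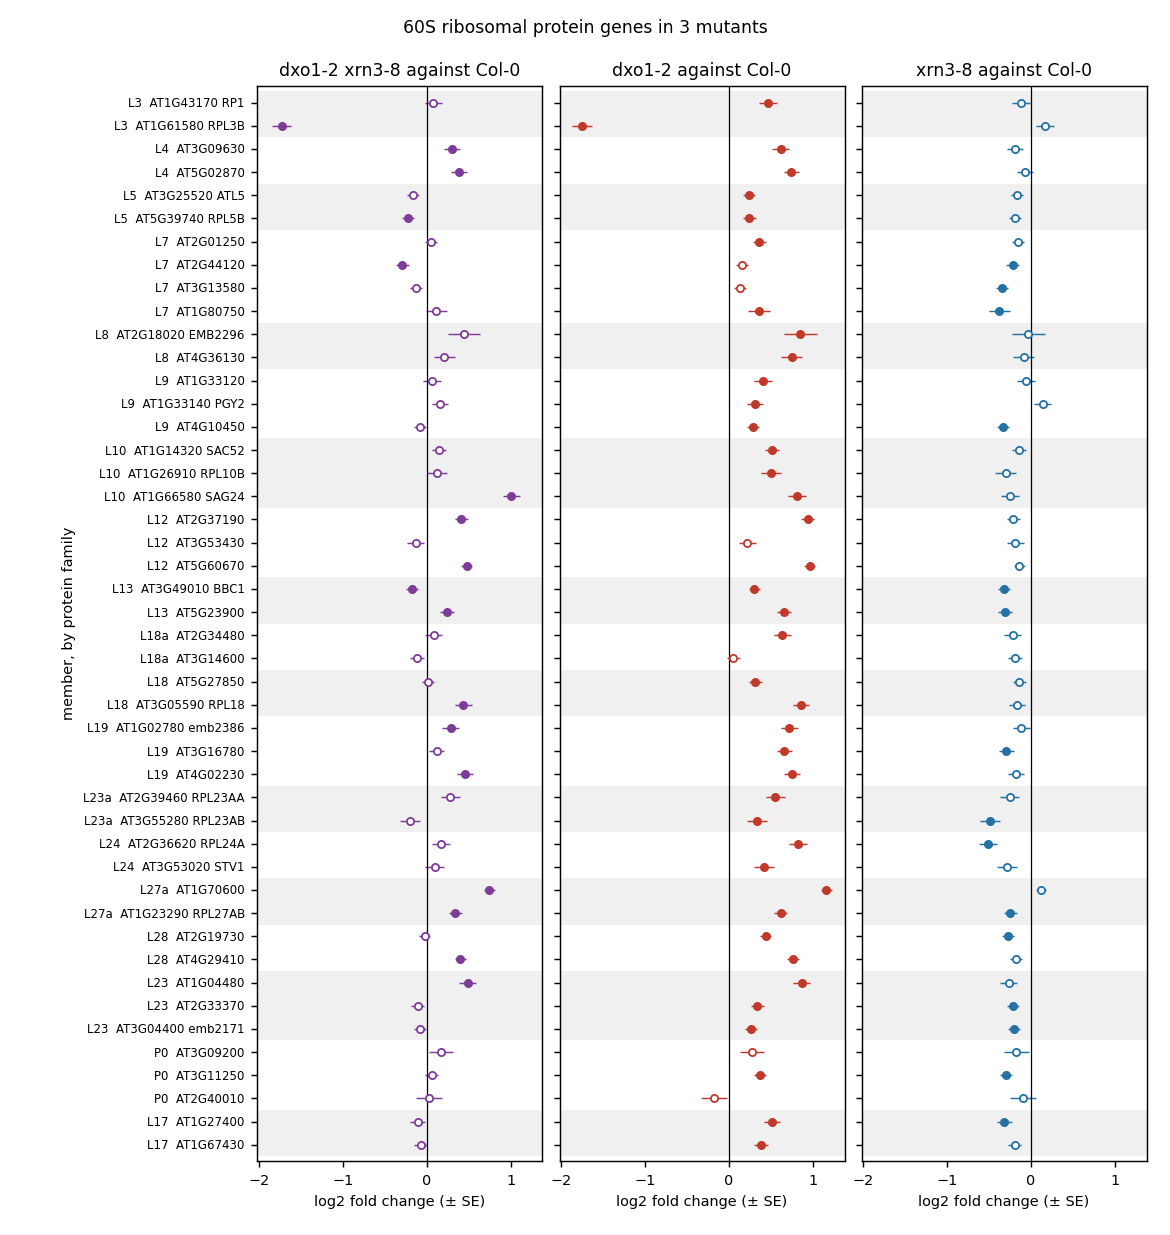
Log2 fold change against Col-0 (horizontal axis, ± SE) of each of the 46 tested members, grouped by protein family on the vertical axis, with dxo1-2 xrn3-8 on the left, dxo1-2 in the middle and xrn3-8 on the right; filled points passed an adjusted p of 0.05 and open points did not. In dxo1-2, 39 members rose, and RPL3B stands apart on the left in both genotypes with the dxo1-2 allele.

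The largest rise was that of AT1G70600, at chr1:26620821-26621779, one of 2 genes for the 60S protein L27a. AT1G70600 had 114, 113 and 116 CPM in dxo1-2, against 51.6, 51.5 and 50.4 CPM in Col-0. No library of one genotype came near those of the other, and the log2 fold change was 1.16 (edgeR, SE 0.0637, adjusted p = 2.3e-08). Its paralog RPL27AB rose by a log2 fold change of 0.62 (edgeR adjusted p = 1.8e-05). AT1G70600 supplied 47.5 ± 0.676% of the L27a reads per kb in dxo1-2, against 38.5 ± 2.21% in Col-0. The larger rise was thus in the paralog that was the minor one in the wild type. The share of AT1G70600 was also above every Col-0 library in dxo1-2 xrn3-8, at 45.2 ± 0.593%, and in xrn3-8, at 44.4 ± 0.936%.

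The next was AT5G60670, a gene for L12, which sits at the base of the ribosomal stalk where translation factors bind. AT5G60670 had 85.5, 81.7 and 82.4 CPM in dxo1-2, against 42.7, 43.7 and 41.6 CPM in Col-0. The groups did not overlap, with a log2 fold change of 0.96 (edgeR, SE 0.0660, adjusted p = 1.2e-07). Of the other L12 genes, AT2G37190 rose by 0.94, whereas AT3G53430 had a log2 fold change of 0.22 that did not pass (edgeR adjusted p = 0.092). AT3G53430 accordingly supplied 31.6 ± 0.746% of the L12 reads per kb in dxo1-2, against 43.3 ± 0.813% in Col-0.

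The most abundant member per kb, emb2386, encodes L19, whose long helix reaches toward the small subunit. It had 429, 465 and 410 CPM in dxo1-2, against 273, 265 and 254 CPM in Col-0, a log2 fold change of 0.72 (edgeR, SE 0.103, adjusted p = 7.8e-05). Every dxo1-2 library was above every Col-0 library. The other L19 genes, AT3G16780 and AT4G02230, rose by 0.66 and 0.75, so the shares of the 3 paralogs in L19 overlapped between these genotypes.

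The genes for L4 and L17, which line the tunnel through which the new protein leaves, also rose, by log2 fold changes of 0.38 to 0.74. Those for L23a, at the tunnel exit, rose by 0.55 for RPL23AA and 0.33 for RPL23AB. The L5 genes ATL5 and RPL5B, whose protein carries 5S ribosomal RNA into the subunit, rose by 0.24 each. RPL24A and STV1 encode L24, and STV1 is known in Arabidopsis for its part in translation re-initiation and gynoecium development. RPL24A rose by 0.83 and STV1 by 0.42.

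Members that did not pass in dxo1-2 were 2 of 4 L7 genes, AT2G44120 and AT3G13580, with log2 fold changes of 0.16 and 0.13, AT3G53430 of L12, and 2 P0 genes, AT3G09200 at 0.28 and AT2G40010 at -0.18. The sixth was AT3G14600 of L18a, which had 73.2, 72.3 and 68.1 CPM in dxo1-2, against 73.2, 68.1 and 64.5 CPM in Col-0. Its libraries overlapped and its log2 fold change was 0.05 (edgeR, SE 0.0820, adjusted p = 0.63). The other L18a gene, AT2G34480, rose by 0.63 (edgeR adjusted p = 0.00019).

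RPL3B (AT1G61580, chr1:22720560-22723152) was the 1 member that fell. L3 reaches from the surface of the subunit to the peptidyl transferase centre, and RPL3B is the minor of its 2 genes. RPL3B had 6.53, 5.89 and 7.26 CPM in dxo1-2 xrn3-8, 6.46, 5.43 and 7.44 CPM in dxo1-2, 25.9, 22.9 and 24.1 CPM in xrn3-8 and 21.8, 22.8 and 20.5 CPM in Col-0. The 6 libraries with the dxo1-2 allele lay between 5.43 and 7.44 CPM, and the 6 without it between 20.5 and 25.9 CPM. RPL3B fell by a log2 fold change of -1.72 in dxo1-2 xrn3-8 (edgeR, SE 0.113, adjusted p = 5.2e-08) and of -1.75 in dxo1-2 (edgeR, SE 0.114, adjusted p = 8.5e-08) against Col-0. Set against xrn3-8, the double mutant differed by -1.89 (edgeR, SE 0.113, adjusted p = 4.1e-08). In xrn3-8 itself the log2 fold change was 0.16 (edgeR, SE 0.108, adjusted p = 0.26).

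The paralog RPL3A (AT1G43170, also named RP1) had 461, 399 and 530 CPM in dxo1-2 xrn3-8, 620, 626 and 577 CPM in dxo1-2, 455, 375 and 383 CPM in xrn3-8 and 425, 448 and 442 CPM in Col-0. Only dxo1-2 was separated from Col-0, by a log2 fold change of 0.47 (edgeR, SE 0.106, adjusted p = 0.0026). RPL3B supplied 1.64 ± 0.0606% of the L3 reads per kb in dxo1-2 xrn3-8, 1.24 ± 0.244% in dxo1-2, 6.60 ± 0.320% in xrn3-8 and 5.48 ± 0.291% in Col-0 (SD, n = 3). The coding sequences of the paralogs were 80.09% identical and shared no stretch of 100 bases. The read length is not stated here, and shorter reads could match both genes. RPL3B overlaps AT1G61575 on the opposite strand by 16 bases, and that gene had at most 0.412 CPM on average in any genotype.

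**Figure D3:**
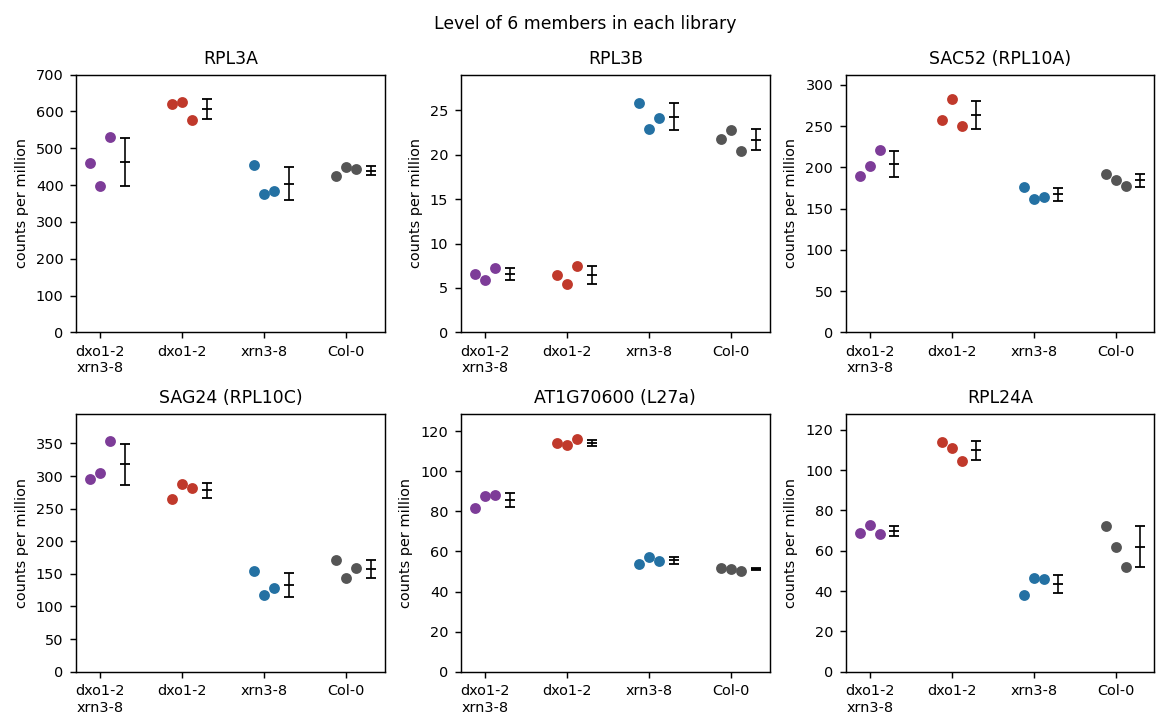
Level in CPM (vertical axes, from 0) of 6 members in each library of dxo1-2 xrn3-8, dxo1-2, xrn3-8 and Col-0; coloured points are libraries, and the black bar beside them is the mean ± SD of 3. RPL3B lies between 5.43 and 7.44 CPM in all libraries with the dxo1-2 allele, and SAG24 is highest in the double mutant.

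In xrn3-8, the members that changed were lower than in Col-0 with TMM scaling, whereas scaling to total nuclear counts also gave some that were higher. By edgeR's test none rose, 15 of 46 fell and 31 did not pass, where 16.3% of all tested genes rose and 18.1% fell (34.4% in either direction). The median log2 fold change was -0.19 for the members, against 0.00 for all tested genes and -0.15 for the 1449 nuclear genes of like level, of which 200 rose and 561 fell. The part of the members that passed was near that of all genes, so nothing particular to them is read from it. Libraries lay wholly below Col-0 for 27 members and wholly above for 2, where 24.2% and 22.9% of all tested genes (47.1% in all) were so separated. All 19 family sums were lower, by log2 -0.37 for L24 to -0.05 for L8, but 7 were higher when libraries were scaled to their total nuclear counts, and 2 with upper quartile scaling. Scaling to total nuclear counts raised the median of all tested nuclear genes to 0.17, and edgeR then called 3 members higher and 1 lower. Of the 21771 genes tested in that fit, 6425 were called higher and 2393 lower. Relative to the median of all nuclear genes the members' median was -0.19 under both scalings. Rescaling moves all genes by nearly the same amount, so this difference was bound to stay the same and does not bear on the calls. Without replicate 1 of Col-0, 7 members were lower, and without replicate 3 of xrn3-8, 9 were. Of all genes tested, 3221 of 22455 were lower in the first of these fits and 3465 of 22251 in the other.

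The largest fall was that of RPL24A (AT2G36620, chr2:15350268-15352013). It had 38.1, 46.2 and 46.2 CPM in xrn3-8, against 72.2, 61.7 and 52.1 CPM in Col-0. The groups did not overlap, though the Col-0 libraries spread widely, and the log2 fold change was -0.51 (edgeR, SE 0.108, adjusted p = 0.0022). Its paralog STV1 had a log2 fold change of -0.29 (edgeR adjusted p = 0.067).

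RPL23AB (AT3G55280), the minor of the L23a genes per kb, had 30.4, 43.1 and 37.7 CPM in xrn3-8, against 54.0, 50.7 and 51.2 CPM in Col-0. All xrn3-8 libraries were below all Col-0 libraries, with a log2 fold change of -0.49 (edgeR, SE 0.120, adjusted p = 0.0059). The call was lost when libraries were scaled to total nuclear counts, where the value was -0.31. The other members that fell had log2 fold changes of -0.20 to -0.37, among them the L13 genes BBC1 and AT5G23900 at -0.32 and -0.31 and emb2171 of L23, a protein of the subunit interface, at -0.20.

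Highest in xrn3-8 were RPL3B, given above, and PGY2 (AT1G33140), a gene for L9 known in Arabidopsis for its part in leaf polarity. PGY2 had 47.0, 54.3 and 50.003 CPM in xrn3-8, against 42.0, 45.8 and 49.8 CPM in Col-0. The libraries overlapped and the log2 fold change of 0.14 did not pass (edgeR, SE 0.0965, adjusted p = 0.29), with 0.080 to 0.21 when 1 library was left out. PGY2 shares 51.7% of its 100-base stretches with its neighbour and paralog AT1G33120, so the split of reads between the 2 genes is uncertain. When libraries were scaled to total nuclear counts, PGY2 and RPL3B passed, at 0.31 and 0.34.

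In dxo1-2 xrn3-8, 13 of 46 members rose against Col-0, 4 fell and 29 did not pass by edgeR's test, where 24.4% of all tested genes rose and 22% fell. The share that rose, 13 of 46, was near that of all genes. The median log2 fold change was 0.10, against 0.02 for all tested genes and -0.11 for the 1449 nuclear genes of like level. Without replicate 3 of dxo1-2 xrn3-8 the members' median was 0.055. Libraries lay wholly above Col-0 for 15 members and wholly below for 6, where 28.9% and 26.6% of all tested genes (55.6% in all) were so separated. Scaling to total nuclear counts raised the median of all tested nuclear genes to 0.20, and edgeR then called 26 members higher and 1 lower. Of the 21771 genes tested in that fit, 7836 were called higher and 2903 lower. Relative to the nuclear median, the members' median was 0.08 under both, which was bound to hold, since rescaling moves all genes nearly alike. Summed by family, 15 families were higher and 4 lower, from log2 -0.19 for L5 to 0.60 for L10, and 18 were higher with scaling to total nuclear counts. Without replicate 1 or 2 of Col-0, or replicate 1 of the double mutant, 2 members were lower. Of all genes tested, 4077 of 22455, 3914 of 22445 and 4232 of 22382 were lower in these fits, in that order.

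SAG24 (AT1G66580, chr1:24839090-24840806), also named RPL10C, had the largest rise in the double mutant. L10 joins the subunit at a late step in the cytosol and completes the site where transfer RNA binds, and SAG24 is named as a senescence-associated gene. SAG24 had 295, 304 and 354 CPM in dxo1-2 xrn3-8, 265, 287 and 282 CPM in dxo1-2, 154, 118 and 128 CPM in xrn3-8 and 171, 144 and 159 CPM in Col-0. All libraries with the dxo1-2 allele were above all those without it, and the double mutant was above dxo1-2 in every library. Relative to Col-0, SAG24 changed by log2 1.01 in dxo1-2 xrn3-8 (edgeR, SE 0.107, adjusted p = 3.9e-06) and 0.82 in dxo1-2 (edgeR, SE 0.107, adjusted p = 3.3e-05). Between the double mutant and dxo1-2 it was 0.19 and did not pass (edgeR, SE 0.106, adjusted p = 0.19).

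The other L10 genes differed from SAG24. SAC52 (AT1G14320), the gene for RPL10A, had 189, 202 and 221 CPM in dxo1-2 xrn3-8, against 192, 184 and 177 CPM in Col-0. These libraries overlapped, at a log2 fold change of 0.14 (edgeR, SE 0.0807, adjusted p = 0.16). RPL10B (AT1G26910) had 8.30, 7.05 and 7.69 CPM in dxo1-2 xrn3-8, against 8.10, 6.64 and 6.46 CPM in Col-0, at 0.12 (edgeR, SE 0.124, adjusted p = 0.45). SAG24 therefore supplied 62.0 ± 0.759% of the L10 reads per kb in dxo1-2 xrn3-8, 52.6 ± 1.45% in dxo1-2, 45.5 ± 2.15% in xrn3-8 and 47.3 ± 1.88% in Col-0 (SD, n = 3). SAC52 was the leading L10 gene in xrn3-8 and Col-0, and SAG24 in the genotypes with the dxo1-2 allele.

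The other members that rose in the double mutant had log2 fold changes of 0.24 to 0.74. The comparisons of the mutants with Col-0 share the Col-0 libraries, so their values are given side by side only. AT1G70600 had 81.6, 87.7 and 88.0 CPM in dxo1-2 xrn3-8 and 53.8, 57.3 and 55.5 CPM in xrn3-8, so the double mutant lay between the single mutants. Its log2 fold change against Col-0 was 0.74 (edgeR, SE 0.0633, adjusted p = 5.1e-07). emb2386 had 321, 283 and 360 CPM in dxo1-2 xrn3-8, all above Col-0, at 0.28 (edgeR, SE 0.103, adjusted p = 0.036).

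Besides RPL3B, the members that fell in the double mutant were AT2G44120 of L7, RPL5B and BBC1. AT2G44120 had 112, 99.2 and 105 CPM in dxo1-2 xrn3-8, against 137, 125 and 126 CPM in Col-0. The groups did not overlap, and the log2 fold change was -0.29 (edgeR, SE 0.0748, adjusted p = 0.0055). Its call was lost with scaling to total nuclear counts, at -0.12. RPL5B had -0.22 and BBC1 -0.18, and with scaling to total nuclear counts both calls were lost, at -0.049 for RPL5B and 0.00051 for BBC1.

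Set against dxo1-2, the double mutant had lower levels of most members. By edgeR's test none rose, 37 of 46 fell and 9 did not pass, where 16.4% of all tested genes rose and 15.5% fell. The median log2 fold change was -0.38, against 0.01 for all tested genes. Libraries lay wholly below dxo1-2 for 38 members and wholly above for 1, where 22% and 23.2% of all tested genes were so separated. RPL24A fell most, by a log2 fold change of -0.65 (edgeR, SE 0.107, adjusted p = 0.00039), with 68.6, 72.8 and 68.1 CPM in dxo1-2 xrn3-8, against 114, 111 and 105 CPM in dxo1-2. RPL3B and SAG24 were among those that did not pass. With scaling to total nuclear counts, 29 of the 37 calls were kept and 1 member was higher. Of the 21771 genes tested in that fit, 5053 were higher and 2371 lower.

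Set against xrn3-8, the double mutant had higher levels of most members. By edgeR's test 26 of 46 rose, 1 fell and 19 did not pass, where 22.9% of all tested genes rose and 20.5% fell. The median log2 fold change was 0.30, against 0.00 for all tested genes. Libraries lay wholly above xrn3-8 for 30 members and wholly below for 1, where 26.2% and 24.6% of all tested genes (50.9% in all) were so separated. SAG24 rose most, by 1.25 (edgeR, SE 0.108, adjusted p = 8.5e-07), and the 1 that fell was RPL3B.

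The change that goes with the dxo1-2 allele can be set side by side on both backgrounds, since dxo1-2 against Col-0 and dxo1-2 xrn3-8 against xrn3-8 share no library. Across the 46 members, Pearson's r between the log2 fold changes was 0.91 and Spearman's rho 0.86, and without RPL3B r was 0.77 over 45. Over all 21974 tested genes r was 0.28. Those genes were not matched to the members in level, so the values of r are not compared like for like. Members are not independent replicates, since they share libraries, so these values only describe the pattern. Of the 39 members that rose in dxo1-2, 25 also rose in the double mutant against xrn3-8, and these were 25 of the 26 that rose there. Over all tested genes, 2695 of the 4714 that rose in dxo1-2 were among the 5040 that rose there. Since 39 of the 46 members rose in dxo1-2, most of any 26 members would be among them, so nothing is read from this overlap. For xrn3-8 on both backgrounds, r across the 46 members was 0.35, against 0.28 over all tested genes, and without RPL3B it was 0.25. Of the 15 members that fell in xrn3-8, 14 were among the 37 that fell in the double mutant against dxo1-2, and over all tested genes 1560 of 3981 were among 3398. Nothing is read from this overlap either, since most of any 15 members would be among 37 of 46.

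**Figure D4:**
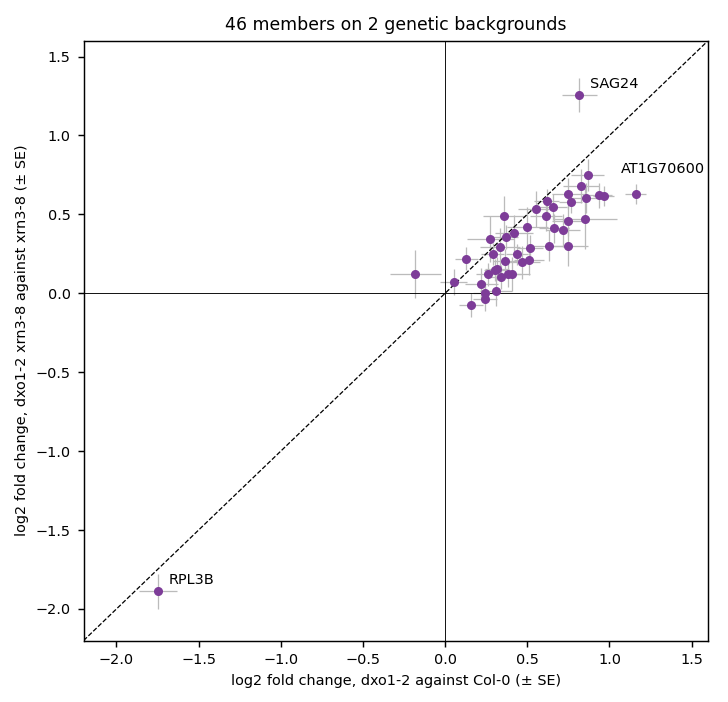
Log2 fold change of each of the 46 tested members in dxo1-2 xrn3-8 against xrn3-8 (vertical axis) and in dxo1-2 against Col-0 (horizontal axis), both ± SE; the dashed line marks equal values. Most points lie above 0 on both axes and below the dashed line, RPL3B lies at the lower left, and SAG24 lies above the line at 1.25 and 0.82.

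Whether the change in the double mutant differed from the sum of the changes in the single mutants was tested as the interaction on the log2 scale. By edgeR's test none of the 46 members was higher than the sum, 2 were lower and 44 did not pass, where 12.2% of all tested genes were higher and 8.67% lower. Of all tested genes 20.9% passed in either direction. The members' median was -0.16, against 0.01 for all tested genes, and a value that misses the threshold does not show that the changes add up. Upper quartile scaling moved the median of all nuclear genes to -0.10 and gave 16 members lower, and without replicate 3 of dxo1-2 xrn3-8, 8 were lower. With upper quartile scaling 2886 of all 21974 tested genes were lower, and without that replicate 1971 of 22421.

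The 2 members that passed were AT1G70600, at -0.53 (edgeR, SE 0.0890, adjusted p = 9.0e-04), and AT5G60670, at -0.35 (edgeR, SE 0.0925, adjusted p = 0.016). AT5G60670 had 57.2, 62.2 and 58.7 CPM in dxo1-2 xrn3-8 and 37.4, 40.7 and 38.1 CPM in xrn3-8, to be read beside its values in dxo1-2 and Col-0 above. The double mutant was above xrn3-8 and Col-0 and below dxo1-2 in every library. AT4G36130 of L8, a protein near the peptidyl transferase centre, had 54.2, 51.4 and 70.8 CPM in dxo1-2 xrn3-8, 86.3, 91.7 and 77.5 CPM in dxo1-2, 56.3, 43.8 and 43.3 CPM in xrn3-8 and 51.6, 49.99 and 50.8 CPM in Col-0. Its interaction of -0.45 did not pass (edgeR, SE 0.174, adjusted p = 0.084) but did without replicate 3 of dxo1-2 xrn3-8, at -0.60, and with scaling to total nuclear counts, at -0.52. The gene overlaps AT4G36140 on the opposite strand by 295 bases.

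The highest interaction values were those of SAG24, at 0.44 (edgeR, SE 0.150, adjusted p = 0.052), and AT1G80750 of L7, at 0.13 (edgeR, SE 0.180, adjusted p = 0.66). Leaving out 1 library gave AT1G80750 values of 0.019 (without replicate 2 of dxo1-2) to 0.27 (without replicate 3 of dxo1-2 xrn3-8). The value of SAG24 passed without replicate 1 of xrn3-8, at 0.56, and without replicate 1 of dxo1-2 xrn3-8, at 0.50. AT1G80750 had 53.9, 55.7 and 39.4 CPM in dxo1-2 xrn3-8, 65.0, 51.6 and 60.03 CPM in dxo1-2, 31.0, 39.8 and 35.2 CPM in xrn3-8 and 45.7, 43.8 and 48.2 CPM in Col-0. It is the least similar of the L7 genes, with at most 65.14% of coding bases identical to another.

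Across families, 14 members supplied a larger and 16 a smaller part of their family's reads per kb than in any Col-0 library in dxo1-2 xrn3-8. The counts were 15 and 16 in dxo1-2, and 7 and 8 in xrn3-8. Members of a family share 1 total, so these counts are not independent. No like count was made for other gene families, so nothing particular to the members is read from them. For levels rather than shares, 55.6% of all tested genes were separated from Col-0 in dxo1-2 xrn3-8, 55.7% in dxo1-2 and 47.1% in xrn3-8. For L18, RPL18 supplied 51.2 ± 3.33% in dxo1-2 xrn3-8, 53.5 ± 1.52% in dxo1-2, 43.7 ± 2.00% in xrn3-8 and 44.2 ± 1.25% in Col-0. For L23, whose 3 genes share no more than 88.89% of coding bases, AT1G04480 supplied 31.7 ± 1.68% in dxo1-2 xrn3-8, 32.1 ± 0.272% in dxo1-2, 23.1 ± 1.94% in xrn3-8 and 23.9 ± 0.413% in Col-0. In both families the genotypes with the dxo1-2 allele stood apart from the others. That did not hold for L4, L23a and L27a, whose shares were separated from Col-0 in the same direction in all 3 mutants. The paralogs of L5 and L8 kept overlapping shares in all 3 mutants.

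Grouped by upstream element, the 8 tested members with a telo box had a median log2 fold change of 0.37 in dxo1-2 xrn3-8, 0.70 in dxo1-2 and -0.23 in xrn3-8, against 0.08, 0.40 and -0.19 for the 38 without one. The 32 tested members with a site II element had medians of 0.08, 0.41 and -0.19, against 0.23, 0.64 and -0.26 for the 14 without one. Ranges of the groups overlapped in each mutant, and no test of these groups was made. RPL3B, which fell, holds 2 site II elements within 250 bases, as do 2 of the L12 genes, of which AT2G37190 rose by 0.94 in dxo1-2.

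Other ribosomal genes serve as a comparison. The 77 other 60S protein genes, of which 74 were tested, had 24 higher and 1 lower in dxo1-2 xrn3-8, 62 higher and none lower in dxo1-2, and none higher and 30 lower in xrn3-8, with medians of 0.14, 0.51 and -0.25. Of 82 tested genes of the 40S subunit, 10 were higher and 11 lower in dxo1-2 xrn3-8, 52 higher and 1 lower in dxo1-2, and 1 higher and 46 lower in xrn3-8, with medians of -0.02, 0.38 and -0.30; the first was 0.15 with scaling to total nuclear counts. Of 21 nuclear genes for the plastid 50S subunit, none was higher and 16 lower in dxo1-2 xrn3-8, 6 higher and none lower in dxo1-2, and none higher and 15 lower in xrn3-8, with medians of -0.39, 0.20 and -0.31. Of all tested genes, 24.4% were higher and 22% lower in dxo1-2 xrn3-8, 21.5% and 20.7% in dxo1-2, and 16.3% and 18.1% in xrn3-8. In xrn3-8, 561 of the 1449 nuclear genes of like level also fell. Scaling to total nuclear counts raised the median of all nuclear genes there to 0.17, so the falls of these lists in xrn3-8 depend on the scaling. The members' medians stood close to those of the other 60S genes in each mutant, and whether the lists differ was not tested.

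**Figure D5:**
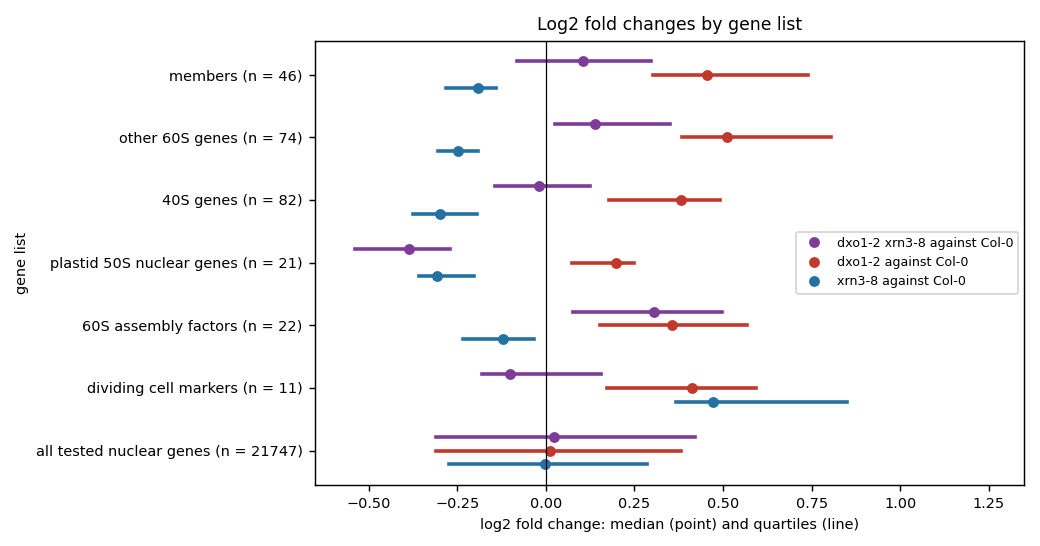
Median (points) and quartiles (lines) of the log2 fold change (horizontal axis) against Col-0 in dxo1-2 xrn3-8, dxo1-2 and xrn3-8, for the members and other gene lists (vertical axis, number tested in brackets). In dxo1-2 the medians of the members, the other 60S genes and the 40S genes lie between 0.38 and 0.51, against 0.01 for all tested nuclear genes.

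By their medians, markers of dividing cells moved in the direction of the members in dxo1-2, but not in xrn3-8 or dxo1-2 xrn3-8. Of 11 such genes, 1 was higher and 1 lower in dxo1-2 xrn3-8, 6 were higher in dxo1-2 and 7 were higher in xrn3-8, with medians of -0.10, 0.41 and 0.47. Their summed level (smallest to largest library) was 67.8 to 75.1 CPM in dxo1-2 xrn3-8, 90.9 to 111 CPM in dxo1-2, 97.0 to 107 CPM in xrn3-8 and 66.0 to 74.99 CPM in Col-0, and none was at 0 in any library. In xrn3-8, 10 of the 11 had log2 fold changes above 0, and the lowest, PCNA2, was at -0.25 and did not pass (edgeR adjusted p = 0.064). The part of dividing cells, of the leaf genes and of the plastid share of reads in these results was not tested. All 3 leaf genes were lower in dxo1-2 xrn3-8, with a median of -0.97, none passed in dxo1-2, and 2 were lower in xrn3-8.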

How the data were processed

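Whole-number read counts per gene were deposited by the authors for each of 12 libraries, with no normalisation. Per the submitters' processing notes, HISAT2 2.0.4, SAMtools 1.1, HTSeq 0.6.0 and TAIR10 were used. Per the labels' protocols, RNA was extracted with Trizol and stranded libraries followed depletion of ribosomal RNA. The strand setting of the counting is not given in the sources used here, so the 12 members that overlap a gene on the opposite strand are uncertain, and without molecular identifiers reads are not independent molecules. Summary lines at the end of each file (5) stayed out: reads in no feature, ambiguous, not aligned or aligned more than once, the last at 9.80 to 11.2% of all reads.

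Here, genes with enough counts (edgeR's filterByExpr, minimum 10 per library and 15 in total) were tested, 21974 in all. Counts were scaled by TMM and fitted in 1 model of 12 libraries with edgeR 4.0.16 (R 4.3.3, quasi-likelihood F-test), with 6 contrasts and Benjamini-Hochberg adjustment over all tested genes. A call is an adjusted p under 0.05, SE is the log2 fold change over the root of F, and CPM is relative to TMM-scaled library size. The code was run on simulated counts in which as many genes were raised as lowered, by more than most members changed. That run does not bear on small changes or on the choice of scaling. Labels call the libraries biological replicates but give no batch, so no within-batch value could be had. Replicate pairs differed by a chi-square of 14.6 to 93.7 per degree of freedom, so no library was a copy of another.

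Members were listed by locus identifier and not by a threshold on any value, but the gene group and the other lists were chosen with earlier results of these data known. All 48 members matched RefSeq TAIR10.1, which gave names, coordinates, exon lengths and upstream sequence. Values per library are given for the 2 highest and 2 lowest members of at least 5 CPM in each comparison with Col-0 and in the interaction, for families L3 and L10 with the largest gap between paralogs in the double mutant, and for the member with the most reads per kb. DXO1 and XRN3 checked the labels. Alternatives were DESeq2 1.42.0, upper quartile scaling, nuclear genes alone, no filter, a 1.5-fold limit, a fit of 2 genotypes, a replicate block and leaving out each library. Scaling to total nuclear counts and leaving out members with overlaps or shared sequence were chosen after seeing the data.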

Additional observations from a re-analysis of the deposited data

Results flagged for a closer look

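For 2 of 46 members the effect of the dxo1-2 allele differed between the xrn3-8 and the wild-type background by the test of the interaction. Of all 21974 tested genes 20.9% passed this test in either direction, and 8.67% were lower, so nothing particular to the members is read from the count. AT1G70600, a gene for L27a, had an interaction of -0.53 in log2 units (edgeR, SE 0.0890, adjusted p = 9.0e-04). Its log2 fold change was 0.63 for dxo1-2 xrn3-8 against xrn3-8 and 1.16 for dxo1-2 against Col-0. AT5G60670, a gene for L12, had an interaction of -0.35 (edgeR, SE 0.0925, adjusted p = 0.016), with 0.62 for dxo1-2 xrn3-8 against xrn3-8 and 0.96 for dxo1-2 against Col-0. Both passed in every fit that left out 1 library.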

How the results depend on the processing

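Counts are of members higher or lower, and medians are of the members' log2 fold changes. A limit of 1.5-fold left 18 higher in dxo1-2, 0 lower in xrn3-8, 2 higher and 1 lower in dxo1-2 xrn3-8, 2 lower in the double mutant against dxo1-2, 8 higher against xrn3-8, and 0 lower in the interaction. Of all tested genes, 22.1% passed this limit in either direction in dxo1-2, 18.7% in xrn3-8 and 26.3% in dxo1-2 xrn3-8. For the double mutant it was 15.1% against dxo1-2 and 23.5% against xrn3-8, and for the interaction 15.3%. Upper quartile scaling gave 1 higher and 8 lower in xrn3-8 (median -0.12), a median of 0.23 for the double mutant against xrn3-8, and 16 lower in the interaction (median -0.27). Of all 21974 tested genes, 4613 were then higher and 3153 lower in xrn3-8, and 2000 higher and 2886 lower in the interaction. Scaling to total nuclear counts, chosen after seeing the data, gave a median of 0.53 in dxo1-2, and 3 higher and 1 lower in xrn3-8 (median -0.022). It gave 26 higher and 1 lower in dxo1-2 xrn3-8 (median 0.28), and 12 lower in the interaction (median -0.23). Against dxo1-2, the double mutant then had 1 member higher (median -0.28), and 29 of the 37 lower calls were kept. Of the 21771 genes tested with this scaling, 6425 were higher and 2393 lower in xrn3-8, and 7836 higher and 2903 lower in dxo1-2 xrn3-8. For the double mutant against dxo1-2, 5053 were higher and 2371 lower, and in the interaction 2118 were higher and 2509 lower. Relative to the median nuclear gene the members' medians moved by less than 0.01 with this scaling. That was bound to hold, since rescaling moves all genes nearly alike. Without the filter, 2 were lower in dxo1-2 xrn3-8, where 4444 of all 29093 genes tested in that fit were lower. In the interaction, nuclear genes alone gave 4 lower, and DESeq2 gave 1 higher and 5 lower. Over all genes tested, nuclear genes alone gave 2130 lower, and DESeq2 gave 2958 higher and 2379 lower. Without members that overlap or share sequence, 0 were lower in dxo1-2 and 0 in the double mutant against xrn3-8, since RPL3B is among those left out. With all gene counts as the total, the members' share was 1.43 times that of Col-0 in dxo1-2 xrn3-8 and 1.59 times in dxo1-2. Apart from these alternatives' construction, the cause was not tested.

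Leaving out 1 library at a time gave 7 to 21 lower in xrn3-8 (7 without replicate 1 of Col-0, 9 without replicate 3 of xrn3-8, 21 without replicate 3 of the double mutant), 2 to 4 lower in dxo1-2 xrn3-8, and 0 to 1 higher and 2 to 8 lower in the interaction. Lowest and highest medians were 0.055 and 0.14 in dxo1-2 xrn3-8, 0.45 and 0.51 in dxo1-2, -0.25 and -0.15 in xrn3-8, -0.44 and -0.34 for the double mutant against dxo1-2, 0.25 and 0.36 against xrn3-8, and -0.23 and -0.16 in the interaction. The 2 lower in dxo1-2 xrn3-8 came without replicate 1 or 2 of Col-0 or replicate 1 of the double mutant. Of all genes tested, those lower in xrn3-8 were 3221 of 22455 without replicate 1 of Col-0 and 3465 of 22251 without replicate 3 of xrn3-8. They were 4379 of 22421 without replicate 3 of the double mutant, the fit in which 1971 were lower in the interaction. BBC1, at -0.18 in dxo1-2 xrn3-8, came to 0.00051 with scaling to total nuclear counts.

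Replicate numbers did not pair the libraries (correlations of same-numbered libraries from -0.122 to 0.154). With a replicate block, 39 were higher in dxo1-2, 14 lower in xrn3-8, and 13 higher and 3 lower in dxo1-2 xrn3-8. Of all 21974 tested genes, 4573 were then higher in dxo1-2 and 3830 lower in xrn3-8. In dxo1-2 xrn3-8, 5197 of them were higher and 4677 lower. Precision rests on 3 libraries a genotype and on the scaling chosen.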
